A study of Mus musculus with 20 samples.

Results

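The genes described here are 33 listed mouse genes of fatty acid oxidation, taken by symbol: 19 whose products work in mitochondria, 8 in peroxisomes and 6 in both places or elsewhere. A probe with the gene's name was found for 31 of the 33, and 1 probe stood for each of them among the 19505 genes measured. The mitochondrial genes had 18 of 19 (Etfb was without a named probe), the peroxisomal genes 8 of 8, and the last 5 of 6 (Acsl1 was without one). Per the labels RNA came from mouse fat cells differentiated in culture from adipose tissue, and 20 expression arrays were run, 5 in each of 4 groups. The groups were wild type and Olfm2 knockout from a depot labelled sc, and wild type and Olfm2 knockout from a depot labelled g. Olfm2 encodes olfactomedin 2, a secreted glycoprotein. The sources used here do not state the knockout allele, strain, sex, age, diet or culture times, or whether replicates came from separate animals or cultures; p-values then reflect only the spread among these arrays, which may be technical.

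Fatty acids are shortened by beta-oxidation, which removes acetyl-CoA units from a chain bound to coenzyme A. In mitochondria the chain enters through the carnitine shuttle and is cut in a cycle of dehydrogenation, hydration, a further dehydrogenation and thiolysis, with the electrons passed to the respiratory chain. Peroxisomes shorten very long, branched and dicarboxylic chains with their own enzymes, and pass the shortened products on. In white fat cells, which mainly store lipid, this capacity is modest, while in brown fat cells it feeds heat production, and many of its genes are targets of the nuclear receptors PPARalpha and PPARgamma.

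Promoter windows are shown for 3 genes that rose in g knockout arrays and for a pair that shares promoter sequence; each runs from 250 bases before to 50 bases after the start of transcription, from RefSeq on build GRCm38.p6, read 5′ to 3′ on the gene's strand. Windows were found for 27 of the 33 genes. The first is that of Ehhadh, the peroxisomal bifunctional enzyme with the largest rise in g knockout arrays, at chr16:21787785-21788084 on the minus strand, with the CCAAT box in capitals as it reads from the other strand. Those of Echs1 (chr7:140116372-140116671, minus strand) and Acadm (chr3:153944594-153944893, minus strand), both of which rose in g knockout arrays, carry the nuclear receptor half-site AGGTCA, in capitals, which reads TGACCT in Acadm. The window of Hadhb (chr5:30155003-30155302, plus strand) is shown because Hadha and Hadhb, the subunits of 1 enzyme, are transcribed away from each other from starts 273 bases apart, and its capitals mark the 228 bases that also lie in the window of Hadha (chr5:30154931-30155230, minus strand).
Ehhadh: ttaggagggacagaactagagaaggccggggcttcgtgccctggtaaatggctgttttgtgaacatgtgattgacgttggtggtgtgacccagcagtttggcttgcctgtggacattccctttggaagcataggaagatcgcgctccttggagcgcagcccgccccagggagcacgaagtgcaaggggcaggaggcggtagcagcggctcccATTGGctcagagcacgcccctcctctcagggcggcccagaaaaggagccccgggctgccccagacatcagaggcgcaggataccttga
Echs1: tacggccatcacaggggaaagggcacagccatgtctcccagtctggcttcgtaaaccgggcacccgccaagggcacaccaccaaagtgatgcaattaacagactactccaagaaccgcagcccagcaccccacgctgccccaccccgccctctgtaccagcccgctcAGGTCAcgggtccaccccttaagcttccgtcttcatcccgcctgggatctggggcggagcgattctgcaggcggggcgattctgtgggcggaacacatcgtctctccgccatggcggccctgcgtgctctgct
Acadm: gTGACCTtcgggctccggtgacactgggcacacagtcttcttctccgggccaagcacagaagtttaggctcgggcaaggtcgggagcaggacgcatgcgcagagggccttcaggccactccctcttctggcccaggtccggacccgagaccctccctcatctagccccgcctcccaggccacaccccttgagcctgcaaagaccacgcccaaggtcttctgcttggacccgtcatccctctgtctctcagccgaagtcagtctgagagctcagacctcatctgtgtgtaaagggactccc
Hadhb: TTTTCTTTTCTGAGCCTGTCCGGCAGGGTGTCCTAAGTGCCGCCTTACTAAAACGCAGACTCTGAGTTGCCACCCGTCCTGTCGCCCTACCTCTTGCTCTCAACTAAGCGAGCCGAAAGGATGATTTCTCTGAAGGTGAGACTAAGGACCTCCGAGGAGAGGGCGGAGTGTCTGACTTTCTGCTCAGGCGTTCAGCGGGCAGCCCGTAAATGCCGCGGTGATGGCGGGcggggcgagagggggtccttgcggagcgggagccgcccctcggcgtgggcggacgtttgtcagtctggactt

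The median GC content was 59.5% over the 28 windows of these genes (Acsl1 has 2) and 52.7% over 32851 windows of all genes. Each motif was searched on both strands. The half-site AGGTCA lay in 4 of the 28 windows (Acadm, Acadvl, Cpt1a and Echs1), or 14.3%, against 16.3% of all windows. The NRF1 site (GCGC, any 2 bases, GCGC) lay in 3 (Etfb, Etfdh and Ppara), or 10.7% against 6.23%, and the CCAAT box in 12, or 42.9% against 37.4%. The direct repeat of AGGNCA with any 1 base between its copies, a PPAR type of element, lay in 0 of 28 windows against 0.381% of all, the ERR element TNAAGGTCA, which contains AGGTCA, in 0 against 1.28%, and TATAAA in 0 against 13.6%. These matches describe letters in short windows only.

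The values are the authors' log2 signals, normalised by RMA (a method that corrects background, brings arrays to one distribution and summarises probes), so levels of different genes are not set against each other. The Olfm2 probe, whose place relative to the deleted part is not given in the sources used here, read 4.28 to 5.25 in sc wild type against 2.67 to 3.58 in sc knockout, and 4.08 to 4.60 in g wild type against 3.36 to 3.72 in g knockout. The label of fat cells fits the mature adipocyte genes, whose mean over 19 measured markers was 10.65 to 11.03 in g wild type and above that range in the other 3 groups, but markers of other cells were also present. The mean of 15 measured liver-cell genes was 7.41 to 10.2 on 8 arrays (sc300KO and sc318KO; g286 WT and g308 WT; and, of the g knockout arrays, g320 KO, g318 KO, g317 KO and g306 KO) and 4.90 to 5.93 on the other 12. Thus 0 of 5 sc wild type, 2 of 5 sc knockout, 2 of 5 g wild type and 4 of 5 g knockout arrays had a high liver mean. Alb, the plasma protein albumin, read 10.6 to 12.3 on these 8 arrays and 6.48 to 9.22 on the rest, and Fgg, a fibrinogen chain, read 7.39 to 10.3 on all 8 and at most 5.43 on the rest. The mean of 15 skeletal muscle genes was 11.1 on sc286WT, 9.12 on sc307WT, 7.88 on sc317KO and 7.32 on sc320KO, against at most 6.03 elsewhere, and that of 10 lymphocyte genes was 8.25 to 8.65 on sc286WT, sc317KO and sc320KO. The label of fat cells differentiated in culture does not account for these liver, muscle and lymphocyte signals, and their source was not tested. Fewer cells of a type and less RNA per cell cannot be told apart in such bulk samples.

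Within groups, the SD of the fatty acid oxidation genes, pooled over the 4 groups, ran from 0.09 to 0.39 on the log2 scale. The median over the 31 genes was 0.16. The most variable were Ppara (0.39), the nuclear receptor that switches on many of these genes in liver, and Cpt1b (0.36), the muscle form of the shuttle's first enzyme. The map of each gene on each array shows g wild type as the group with the lowest values for most of the set.

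**Figure D1:**
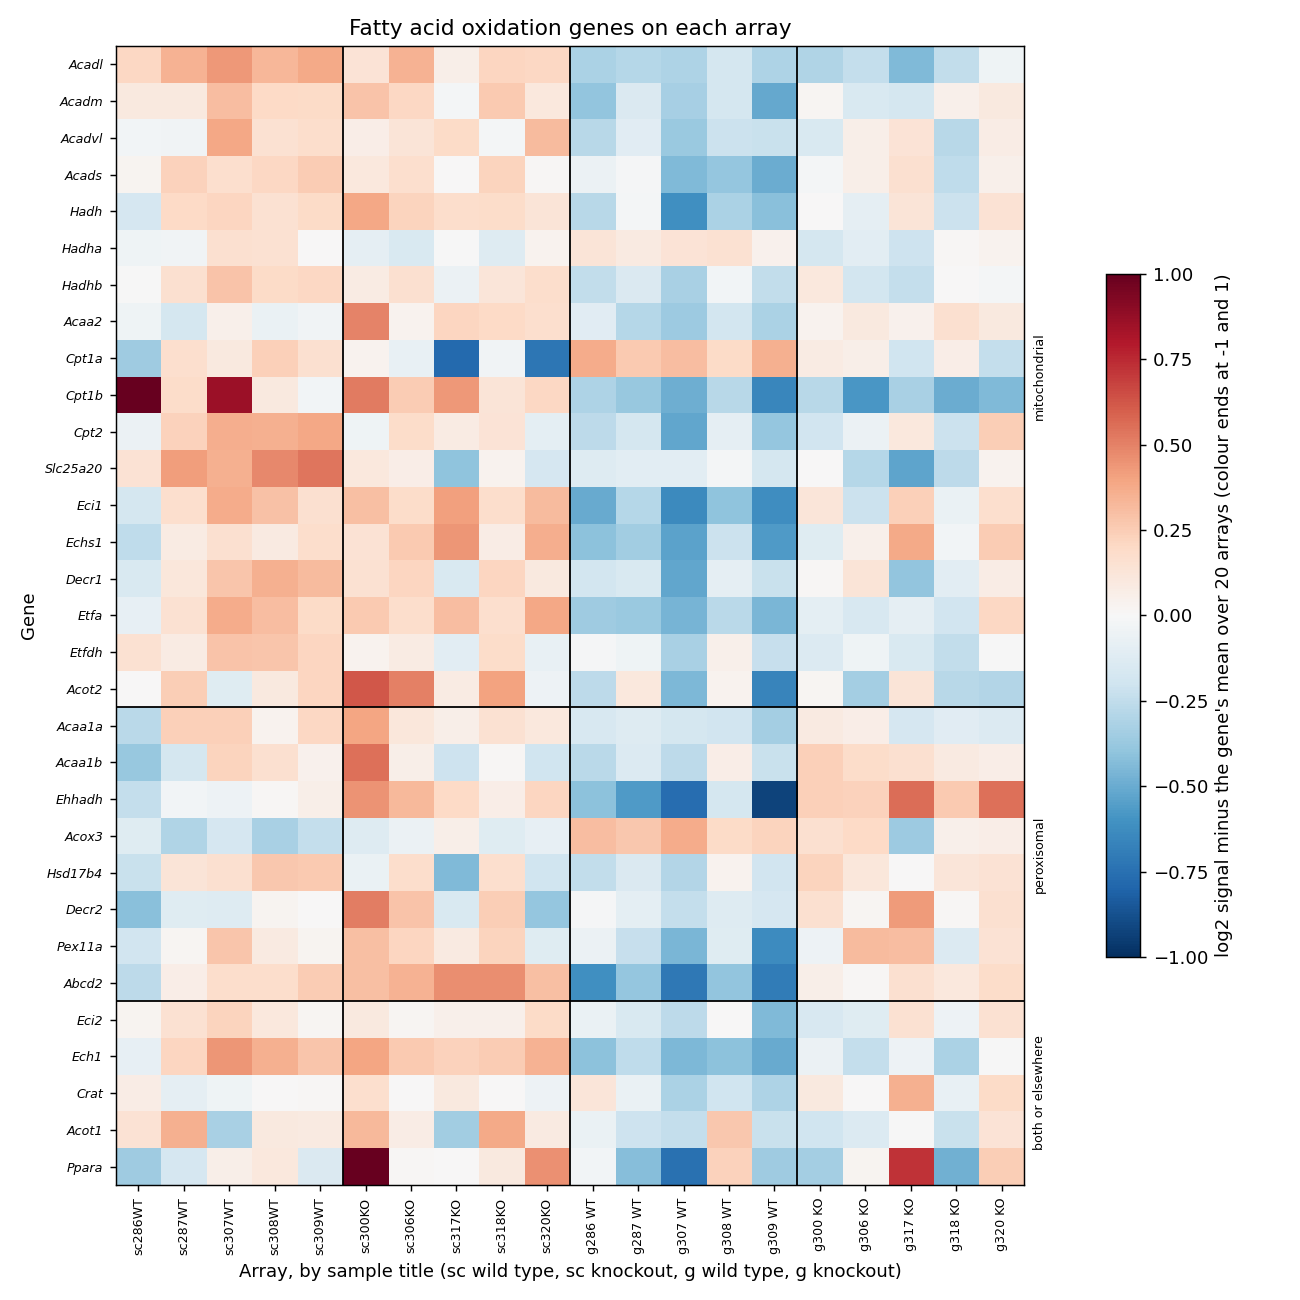
Each row is 1 of the 31 measured genes and each column 1 of the 20 arrays, in 5 sc wild type, 5 sc knockout, 5 g wild type and 5 g knockout arrays; colour gives the log2 signal minus that gene's mean over the 20 arrays. Most rows are blue (low) in g wild type, while Hadha, Cpt1a and Acox3 are red (high) there.

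In the g depot part of both arms of fatty acid oxidation was higher in knockout than in wild-type arrays, most of all peroxisomal Ehhadh. Of the 31 genes 8 rose and 0 fell (limma, adjusted p under 0.05 with Benjamini-Hochberg adjustment over 19505 genes), where 5.01% of all genes rose and 6.27% fell. The genes that rose were Ehhadh, Abcd2 and Pex11a of the 8 peroxisomal genes, and Eci1, Echs1, Acaa2, Etfa and Acadm of the 18 mitochondrial ones. A further 17 lay above 0 without passing the test and 6 lay below 0, and the median difference over the 31 genes was 0.27 against 0.02 over all genes. The groups did not overlap for 8 genes that were higher in knockout (4.68% of all genes) and for 2 that were lower (5.73% of all genes), Hadha and Cpt1a. For the lower genes, 2 of 31 is close to the share over all genes. With 1 array left out at a time 5 to 11 of the 31 genes were called, with 5 without g307 WT, without g309 WT or without g320 KO. Ehhadh, Abcd2, Eci1, Echs1 and Acaa2 were called in all 20 such fits, Etfa and Pex11a in 15, and Acadm in 10.

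Ehhadh makes the peroxisomal enzyme that carries out the hydratase and the second dehydrogenase steps. Its log2 signal in g wild type was 7.12, 6.96, 6.76, 7.35 and 6.60, and in g knockout 7.77, 7.76, 8.08, 7.79 and 8.08. Every knockout array lay above every wild-type array, and the mean rose from 6.96 ± 0.29 to 7.90 ± 0.17 (SD, n = 5 each), a 1.91-fold rise (log2 difference 0.93, SE 0.12, limma adjusted p 0.000104). The highest 2 wild-type values were those of g286 WT and g308 WT, which also had high liver means. The g knockout array with a low liver mean, g300 KO, read 7.77, against 6.60 to 6.96 in the 3 g wild-type arrays with low liver means.

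Abcd2 encodes a transporter that carries very long-chain acyl-CoA into peroxisomes. It read 9.97, 10.19, 9.87, 10.19 and 9.88 in g wild type and 10.65, 10.60, 10.74, 10.69 and 10.76 in g knockout. The groups were well apart, the fold was 1.59 (log2 difference 0.67, SE 0.09, limma adjusted p 0.000206), and the knockout arrays varied by an SD of only 0.07. Pex11a, which takes part in the growth and division of peroxisomes, read 7.72, 7.54, 7.32, 7.66 and 7.15 against 7.72, 8.10, 8.08, 7.64 and 7.92. It rose 1.33-fold (log2 difference 0.42, SE 0.12, limma adjusted p 0.0334). The groups overlapped, since g318 KO lay within the wild-type range, and g300 KO lay only just above its upper end.

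The other 5 peroxisomal genes did not pass the test. Acaa1b, a peroxisomal thiolase, did not overlap between groups (7.65 to 7.98 in g wild type, 7.99 to 8.16 in g knockout, log2 difference 0.31, adjusted p 0.146), and neither did Decr2, the peroxisomal dienoyl-CoA reductase (7.82 to 8.05 against 8.07 to 8.49, difference 0.28, adjusted p 0.213). Acaa1a, a near-identical copy of Acaa1b whose signal could be shared with it, differed by 0.15 (adjusted p 0.405). Hsd17b4, the other peroxisomal bifunctional enzyme, differed by 0.29 (adjusted p 0.118). Acox3, an oxidase that acts on branched chains, was the one peroxisomal gene below 0 (difference -0.25, adjusted p 0.0827), and its lowest g knockout value was 7.79 on g317 KO.

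**Figure D2:**
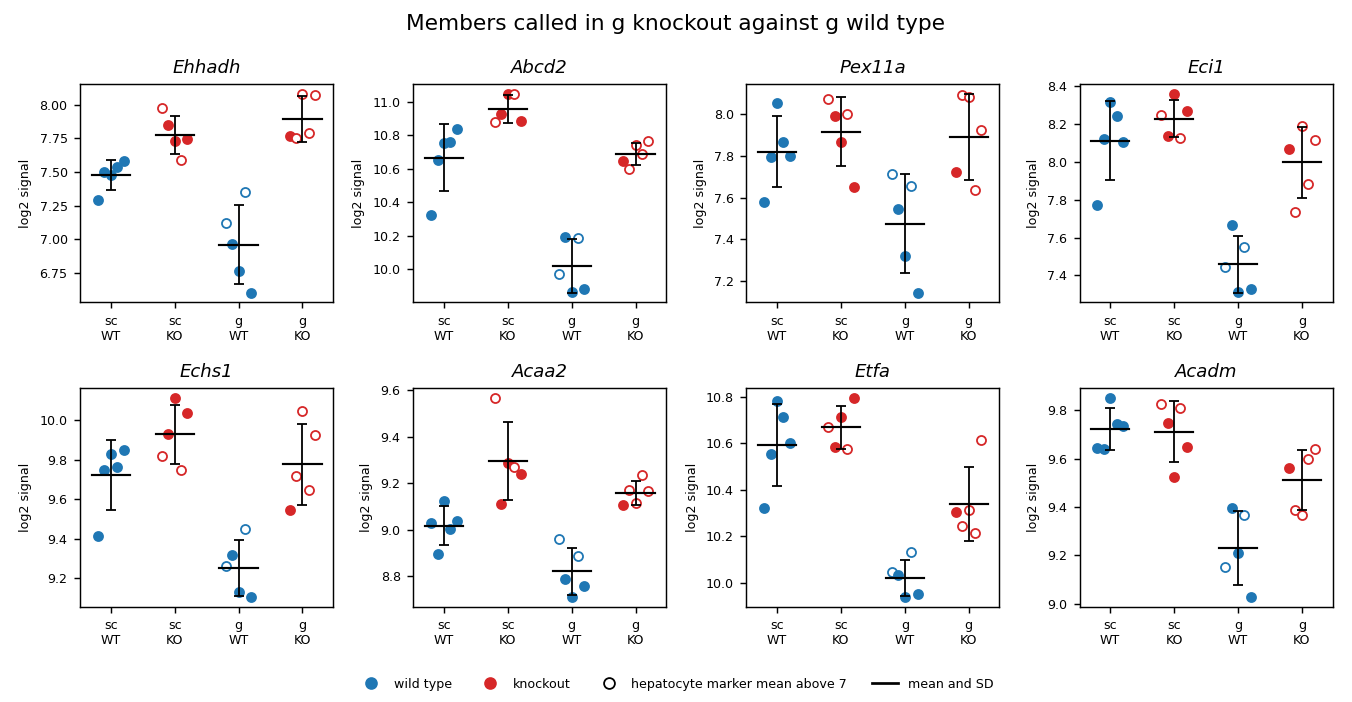
Log2 signal (vertical axes, a separate scale for each gene) of the 8 genes that rose in g knockout, on every array of the 4 groups; bars give the mean and SD, n = 5, and open points mark arrays whose liver-cell marker mean was above 7. For each gene g wild type has the lowest mean, and for all but Pex11a and Acadm the g wild-type and g knockout points do not overlap.

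Among the 18 mitochondrial genes, the 5 that rose in g knockout were Echs1, Eci1, Acaa2, Acadm and Etfa. Echs1 makes the short-chain enoyl-CoA hydratase. It read 9.26, 9.32, 9.13, 9.45 and 9.11 in g wild type and 9.55, 9.72, 10.05, 9.65 and 9.93 in g knockout. The groups did not overlap (1.44-fold, log2 difference 0.52, SE 0.11, limma adjusted p 0.00386). Eci1, the isomerase that lets unsaturated chains enter the cycle, read 7.45, 7.66, 7.31, 7.55 and 7.33 against 8.07, 7.73, 8.19, 7.88 and 8.11, also apart (1.45-fold, difference 0.54, SE 0.11, limma adjusted p 0.00265). Decr1, the mitochondrial reductase that works on unsaturated chains next to Eci1, differed by 0.18 and did not pass (adjusted p 0.397).

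Acaa2, the mitochondrial thiolase of the last step, read 8.96, 8.79, 8.71, 8.89 and 8.76 in g wild type and 9.10, 9.17, 9.12, 9.23 and 9.17 in g knockout. It rose 1.26-fold with no overlap (log2 difference 0.34, SE 0.08, limma adjusted p 0.00962). Hadh, the short-chain dehydrogenase before it in the cycle, narrowly missed the threshold at a difference of 0.33 (adjusted p 0.0538). Acadm, the medium-chain acyl-CoA dehydrogenase of the first step, read 9.15, 9.40, 9.21, 9.37 and 9.03 against 9.56, 9.39, 9.37, 9.60 and 9.64. It rose 1.21-fold (difference 0.28, SE 0.09, limma adjusted p 0.0443) with overlapping groups, since g306 KO and g317 KO lay among the wild-type values. The dehydrogenases for other chain lengths did not pass: Acads, for short chains, differed by 0.28 (adjusted p 0.0849), Acadvl, for very long chains, by 0.21 (0.199) and Acadl, for long chains, by 0.03 (0.882).

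Etfa, a subunit of the flavoprotein that takes electrons from the acyl-CoA dehydrogenases, read 10.05, 10.03, 9.94, 10.13 and 9.95 in g wild type and 10.30, 10.24, 10.31, 10.21 and 10.61 in g knockout. It rose 1.25-fold without overlap (log2 difference 0.32, SE 0.09, limma adjusted p 0.0297). Etfdh, which passes those electrons on to the respiratory chain, differed by -0.01 (adjusted p 0.981). The thioesterases Acot2 (mitochondrial) and Acot1 (cytosolic), near-identical copies whose signals could be shared, differed by 0.09 and 0.01 (adjusted p 0.772 and 0.989).

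Of the 4 genes of the carnitine shuttle 0 were called in g. Cpt1a, the outer-membrane enzyme that commits long chains to oxidation, read 9.56, 9.45, 9.50, 9.38 and 9.55 in g wild type and 9.27, 9.25, 8.99, 9.25 and 8.95 in g knockout. Every knockout array lay below every wild-type array, but the difference of -0.34 (SE 0.15) did not pass the test (limma adjusted p 0.164). The SE of Cpt1a comes from all 4 groups, and the sc knockout arrays varied by an SD of 0.40, the lowest being sc317KO and sc320KO, both with high muscle and lymphocyte means. Without the 4 arrays of high muscle mean, all from sc, the same difference passed as a fall (limma adjusted p 0.00856). That exclusion was chosen after seeing the data. It called 13 of the 31 genes in g, and 14.7% of all genes in either direction. Cpt1a did not pass with the liver (-0.40, adjusted p 0.197), macrophage (-0.12, 0.943) or adipocyte mean (-0.78, 0.182) as a covariate. Cpt1b read 6.37, 6.30, 6.19, 6.40 and 6.02 against 6.39, 6.09, 6.35, 6.18 and 6.23, a difference of -0.01 (SE 0.21, adjusted p 0.994). Slc25a20, the carnitine-acylcarnitine carrier, differed by -0.10 (adjusted p 0.651) and Cpt2, the inner-membrane enzyme, by 0.26 (adjusted p 0.14).

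Hadha and Hadhb are the alpha and beta subunits of the mitochondrial trifunctional protein, which handles long chains in the later steps of the cycle. Hadha read 10.36, 10.33, 10.37, 10.39 and 10.28 in g wild type and 10.06, 10.13, 10.03, 10.25 and 10.27 in g knockout, so that the groups did not overlap, with a difference of -0.20 (SE 0.07, limma adjusted p 0.0859). Hadhb read 10.32, 10.42, 10.24, 10.54 and 10.33 against 10.68, 10.38, 10.33, 10.58 and 10.55, a difference of 0.13 (SE 0.08, adjusted p 0.375). Neither passed the test, yet the signal of Hadhb minus that of Hadha was -0.13 to 0.15 on g wild-type arrays and 0.25 to 0.62 on g knockout arrays, 0.37 to 0.54 on sc wild-type arrays and 0.27 to 0.64 on sc knockout arrays. The g wild-type group lay below the other 3 with no overlap. This pair was looked at after its values were seen, and has no test; such a ratio shows only that the 2 probes changed unequally, while their promoter windows share the 228 bases printed above.

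**Figure D3:**
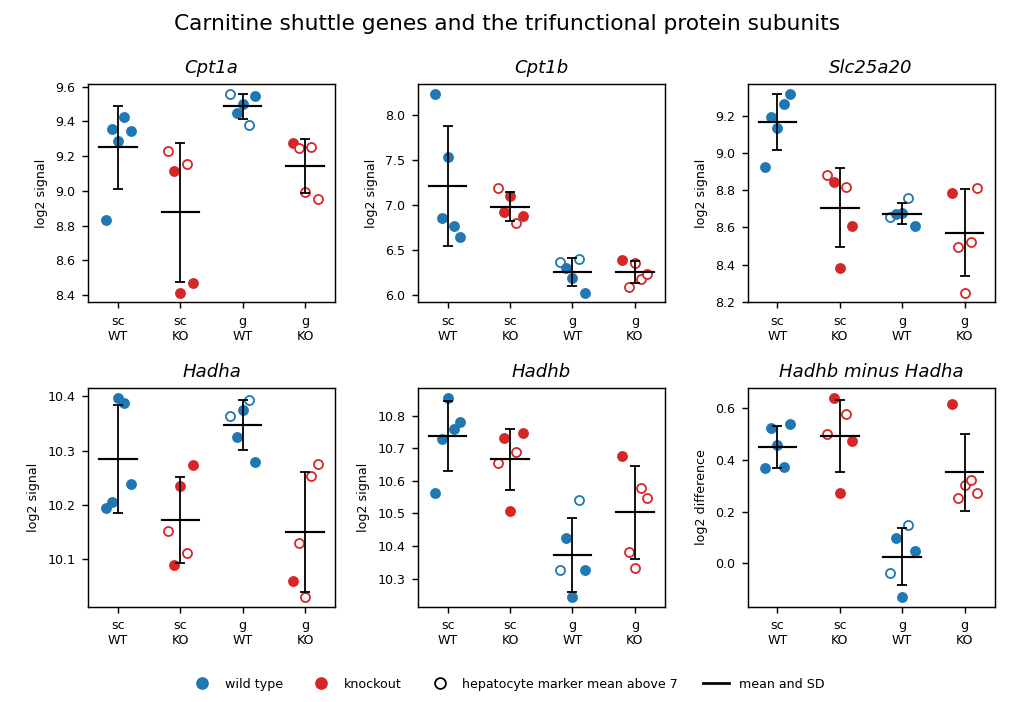
Log2 signal on every array of Cpt1a, Cpt1b and Slc25a20 of the carnitine shuttle and of Hadha and Hadhb, with the per-array difference Hadhb minus Hadha in the last panel (vertical axes, a separate scale for each panel); bars give the mean and SD, n = 5, and open points mark arrays whose liver-cell marker mean was above 7. In g, the knockout points of Cpt1a and Hadha lie below all wild-type points, and Hadhb minus Hadha is lowest in g wild type, at -0.13 to 0.15.

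Genes acting in both places or elsewhere had no call in g. Ech1 (dienoyl-CoA isomerase) differed by 0.27 (limma adjusted p 0.0622), Crat (carnitine acetyltransferase, which buffers acetyl-CoA) by 0.27 (0.07) and Eci2 (an isomerase found in both organelles) by 0.18 (0.23). Ppara read 6.01, 5.62, 5.30, 6.27 and 5.69 in g wild type and 5.70, 6.07, 6.76, 5.56 and 6.29 in g knockout, a difference of 0.30 (SE 0.23, adjusted p 0.475). The Ppara groups overlapped throughout, and the highest value, 6.76, was on g317 KO, the array with the highest liver mean.

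As a group, the 8 peroxisomal genes had a median difference of 0.30 in g and the 18 mitochondrial genes one of 0.19. The mean signal of the peroxisomal genes was 8.19 to 8.47 on g wild-type arrays and 8.60 to 8.70 on g knockout arrays, with no overlap. That of the mitochondrial genes was 8.81 to 9.03 and 9.02 to 9.19, which touched: g318 KO, at 9.02, lay just under the highest wild-type array. Whether the arms differ from each other was not tested.

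Other cell markers moved with this comparison. The mature adipocyte mean rose in step, at 10.65 to 11.03 in g wild type and 11.16 to 11.39 in g knockout without overlap (11 of 19 genes rose, 0 fell), and the macrophage mean was 9.55 to 10.0 against 8.62 to 9.31, also without overlap (11 of 13 genes fell, 1 rose). With the adipocyte mean as a covariate 0 of the 31 genes were called in g, and 0 with the macrophage mean, but over all genes such fits called only 30 and 1 genes, against 2200 without a covariate. With the adipocyte mean in the fit the differences were 0.60 for Ehhadh, 0.34 for Abcd2, 0.32 for Echs1 and 0.29 for Acaa2. Those of Eci1 (0.19), Etfa (0.12), Acadm (0.04) and Pex11a (-0.05) were smaller. With the macrophage mean the differences were 0.52 for Ehhadh, 0.34 for Eci1, 0.33 for Echs1 and 0.28 for Pex11a. They were 0.22 for Etfa and 0.19 for Acadm. Those of Abcd2 (0.65, SE 0.17) and Acaa2 (0.36, SE 0.14) stayed near 0.67 and 0.34 with larger SEs. The part of these markers in the result was not tested beyond these fits. For the liver signal, with its mean as a covariate Ehhadh (0.80, limma adjusted p 0.000644), Abcd2 (0.64, 0.00183), Eci1 (0.53, 0.0148) and Echs1 (0.47, 0.0285) were still called. The other 4 were not, at 0.26 for Acaa2, 0.26 for Acadm and 0.29 for Etfa, against 0.34, 0.28 and 0.32 without the covariate, and at 0.27 against 0.42 for Pex11a; that fit called 1114 of all genes against 2200. Without the 8 arrays of high liver mean only 1 g knockout array and 3 g wild-type arrays were left. The differences were then 0.99 for Ehhadh, 0.66 for Abcd2, 0.64 for Eci1 and 0.39 for Pex11a. They were 0.36 for Echs1, 0.35 for Acaa2, 0.35 for Acadm and 0.33 for Etfa. In that fit the spread of the lone knockout array is taken to be that of the other groups, so no call is given. On that array, g300 KO, 21 of the 31 genes lay above all 3 wild-type arrays, 7 within their range and 3 below. The same count was not made over all genes, so how far the set stands out is not known. That array also had the highest mature adipocyte mean of the g arrays, 11.39.

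In the sc depot the set differed little between knockout and wild type. Of the 31 genes 0 were called by limma, against 0.677% of all genes in either direction; 5 of the 31 and 2017 of all genes had an unadjusted p under 0.05. The median difference was 0.05 over the 31 genes, -0.07 over the mitochondrial and 0.13 over the peroxisomal ones, against 0.01 over all genes. The groups did not overlap for Ehhadh and Abcd2, which were higher (1.41% of all genes), and for Slc25a20, which was lower (1.53% of all genes).

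Ehhadh in sc read 7.29, 7.50, 7.48, 7.54 and 7.59 in wild type and 7.97, 7.85, 7.73, 7.59 and 7.74 in knockout. The lowest knockout array, sc318KO, lay just above the highest wild-type array (log2 difference 0.30, SE 0.12, limma adjusted p 0.354). Abcd2 read 10.33, 10.65, 10.76, 10.76 and 10.84 against 10.88, 10.93, 11.05, 11.05 and 10.88 (difference 0.29, SE 0.09, adjusted p 0.202). Acaa2 read 9.03, 8.89, 9.12, 9.00 and 9.04 against 9.57, 9.11, 9.29, 9.27 and 9.24, a difference of 0.28 (adjusted p 0.136), with the highest value on sc300KO, whose liver mean was 9.68.

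Slc25a20 came nearest to a call in sc. It read 8.92, 9.20, 9.13, 9.26 and 9.32 in wild type and 8.88, 8.84, 8.38, 8.82 and 8.61 in knockout. All knockout arrays lay below all wild-type arrays (log2 difference -0.46, SE 0.11, limma adjusted p 0.0711), and the gene was called under several other settings, among them a fit with the muscle mean as a covariate (-0.54, adjusted p 0.0128) and a fit without dim genes (-0.46, adjusted p 0.0494), but not without the 4 arrays of high muscle mean (-0.41, adjusted p 0.307). It was also called with sc286WT left out or with g317 KO left out, in each case as the 1 gene of the set. Cpt1a, the enzyme upstream of this carrier, read 8.83, 9.36, 9.29, 9.43 and 9.35 against 9.23, 9.11, 8.42, 9.16 and 8.47 (difference -0.37, SE 0.15, adjusted p 0.351). Cpt1b read 8.24, 6.86, 7.53, 6.77 and 6.65 against 7.19, 6.93, 7.11, 6.80 and 6.88 (difference -0.23, adjusted p 0.778), and its highest values, on sc286WT and sc307WT, fell on the arrays with the highest muscle means.

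The other genes that rose in g showed little in sc. Pex11a read 7.58, 7.80, 8.06, 7.87 and 7.80 in sc wild type and 8.07, 7.99, 7.87, 8.00 and 7.65 in sc knockout, a difference of 0.10 (limma adjusted p 0.857). Eci1 read 7.77, 8.12, 8.32, 8.24 and 8.11 against 8.25, 8.13, 8.36, 8.13 and 8.27 (0.12, adjusted p 0.782), and Echs1 9.42, 9.75, 9.83, 9.76 and 9.85 against 9.82, 9.93, 10.11, 9.75 and 10.04 (0.21, adjusted p 0.542). For both isomerase and hydratase the lowest wild-type array was sc286WT, the array with the highest muscle mean. Etfa read 10.32, 10.56, 10.78, 10.71 and 10.60 against 10.67, 10.58, 10.71, 10.58 and 10.79 (0.07, adjusted p 0.849), and Acadm 9.64, 9.64, 9.85, 9.74 and 9.74 against 9.83, 9.75, 9.53, 9.81 and 9.65 (-0.01, adjusted p 0.982). Ppara read 5.69, 5.88, 6.10, 6.15 and 5.90 against 7.12, 6.05, 6.05, 6.14 and 6.50 (0.43, SE 0.23, adjusted p 0.544), and the value 7.12 belonged to sc300KO, the sc array with the highest liver mean.

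**Figure D4:**
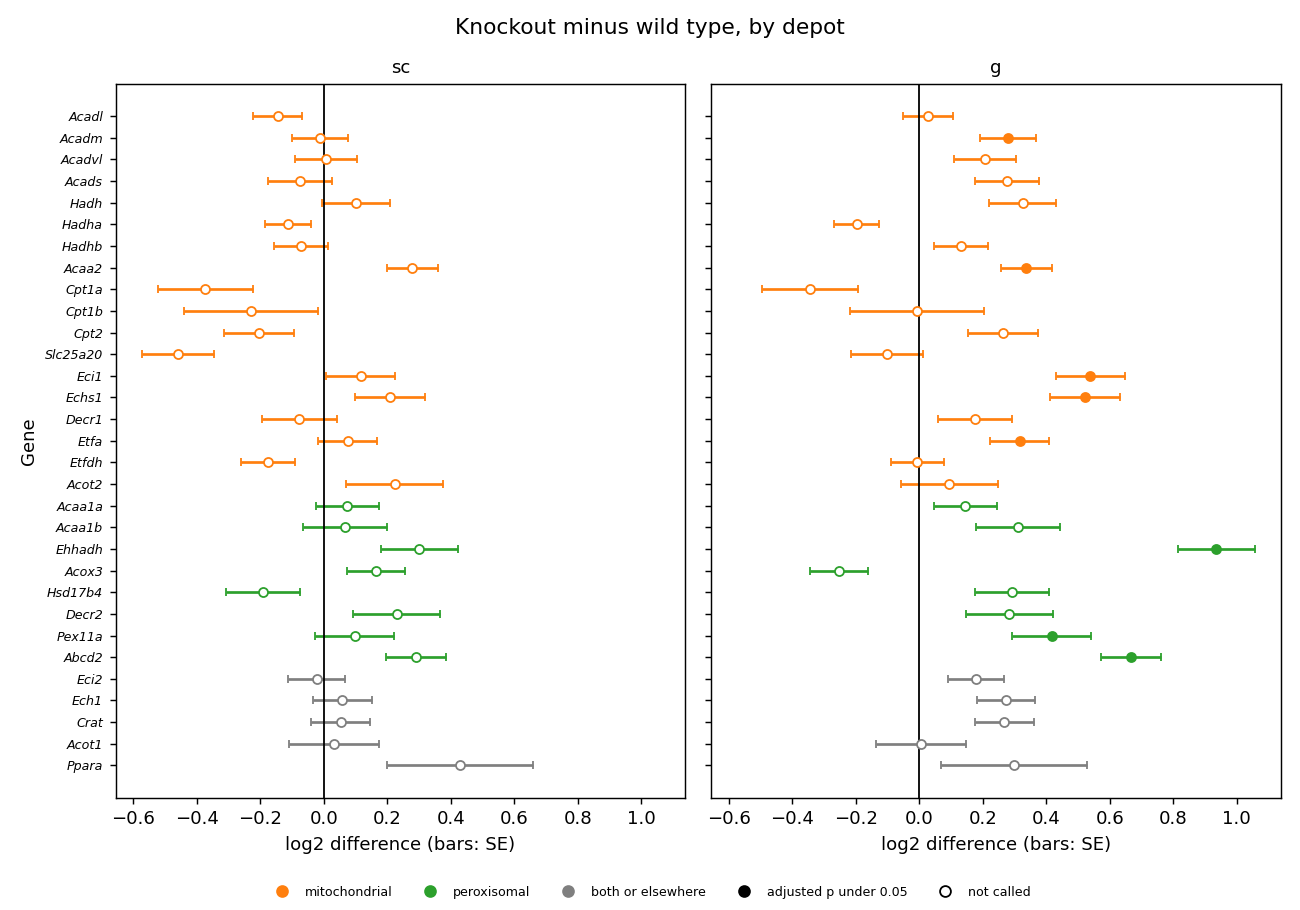
Knockout minus wild type for each of the 31 genes in sc (left) and g (right); the horizontal axis is the log2 difference with its SE, colour gives the place of action, and filled points passed the limma test (adjusted p under 0.05). In sc 0 points are filled; in g 8 are, all to the right of 0, from 0.28 for Acadm to 0.93 for Ehhadh.

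A call in g and none in sc does not show that the depots differ, so the difference of the knockout effect, g minus sc, was tested. Of the 31 genes 0 passed, where 0.0769% of all genes did, 0.041% upward and 0.0359% downward; 9 of the 31 and 2537 of all genes had an unadjusted p under 0.05. The median was 0.22 over the 31 genes against 0.01 over all genes, and 26 of the 31 were above 0. The largest was that of Ehhadh, at 0.64 (SE 0.17, limma adjusted p 0.155), then Hsd17b4 at 0.48 (adjusted p 0.231) and Cpt2 at 0.47 (0.22). Acox3 had the lowest, at -0.42 (adjusted p 0.191). A larger effect of the knockout in g than in sc was therefore not shown for any single gene of the set. In simulated data this test recovered 19% of genes changed 1.5-fold, against 60% for knockout in g. The lack of calls thus does not show that the effects were equal.

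Between depots, most fatty acid oxidation genes read lower on g than on sc wild-type arrays, in bulk RNA whose cell markers also differed. In wild type 19 of the 31 genes were lower in g and 1 was higher (limma), where 8.48% of all genes were lower and 9.3% higher. Of the 18 mitochondrial genes 14 were lower, and of the 8 peroxisomal genes Abcd2, Ehhadh and Acaa1a were lower and Acox3 was higher. The median difference was -0.45 over the mitochondrial, -0.29 over the peroxisomal and -0.04 over all genes. The groups did not overlap for 14 genes that were lower in g (7.36% of all genes) and 1 that was higher, Acox3 (8.73% of all genes). This comparison and that of knockout with wild type in g share the 5 g wild-type arrays.

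Acadl had the smallest p: its mean was 10.56 ± 0.08 in sc and 9.94 ± 0.06 in g wild type (SD, n = 5 each), a difference of -0.62 (SE 0.08, limma adjusted p 1.42e-05). Ech1 went from 10.75 ± 0.20 to 10.10 ± 0.09 (-0.65, adjusted p 5.46e-05) and Abcd2 from 10.67 ± 0.20 to 10.02 ± 0.16 (-0.65, adjusted p 7.33e-05). Electron transfer and the auxiliary isomerase were also lower in g. Etfa went from 10.59 ± 0.18 to 10.02 ± 0.08 (-0.57, adjusted p 0.00018), Eci1 from 8.11 ± 0.21 to 7.46 ± 0.15 (-0.65, adjusted p 0.000233) and Acadm from 9.72 ± 0.09 to 9.23 ± 0.15 (-0.49, adjusted p 0.000496). The 4 acyl-CoA dehydrogenases of this set, Acadl, Acadm, Acads and Acadvl, were all called lower, by 0.37 to 0.62 on the log2 scale. In the shuttle, Cpt2 (-0.54), Slc25a20 (-0.49) and Cpt1b (-0.96, SE 0.21, adjusted p 0.00308) were lower, while Cpt1a did not pass (0.24, adjusted p 0.317). Without the 4 arrays of high muscle mean the Cpt1b difference was -0.50 and still passed (limma adjusted p 0.00503). The part of muscle signal in it was not tested. Acaa1a had the weakest call (-0.29, adjusted p 0.048), which was kept in 3 of 20 fits that each left out 1 array. Acox3 went the other way, from 7.93 ± 0.09 in sc to 8.43 ± 0.07 in g (0.50, SE 0.09, adjusted p 0.000546).

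In knockout the depots differed in fewer of these genes. Lower in g were 3 of the 31, and 0 were higher, where 1.27% of all genes were lower and 2.87% higher, 4.13% in all. Acadl was 10.42 ± 0.11 in sc and 9.97 ± 0.14 in g (log2 difference -0.45, SE 0.08, limma adjusted p 0.00179), Ech1 10.81 ± 0.07 and 10.38 ± 0.13 (-0.43, adjusted p 0.00903) and Etfa 10.67 ± 0.09 and 10.34 ± 0.16 (-0.33, adjusted p 0.0473). Cpt1b (6.98 ± 0.16 and 6.25 ± 0.12, -0.73, adjusted p 0.0566), Acot2 (8.30 ± 0.28 and 7.84 ± 0.21, -0.46, adjusted p 0.101) and Abcd2 (10.96 ± 0.08 and 10.69 ± 0.07, -0.27, adjusted p 0.13) did not pass. Without the 4 arrays of high muscle mean Cpt1b was nearly unchanged here and passed (-0.72, limma adjusted p 0.00191). With 1 array left out at a time Etfa was called in only 3 of 20 fits. Groups did not overlap for 4 genes that were lower in g (1.95% of all genes), Acadl, Cpt1b, Abcd2 and Ech1, and for 0 that were higher (2.31% of all genes). The median was -0.16 over the mitochondrial genes, 0.07 over the peroxisomal genes and -0.02 over all genes. The test of whether the depot difference depends on genotype is the one given above, in which 0 of the 31 genes passed.

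The depots also differed in their cells' markers. In wild type 16 of 19 mature adipocyte genes were lower in g and 12 of 13 macrophage genes were higher; in knockout 0 of 19 adipocyte genes and 11 of 13 macrophage genes (higher) were called. Of 10 brown fat genes 5 were lower in g wild type. Of 15 skeletal muscle genes all 15 lay below 0 in g wild type (median -2.09), and 2, Casq1 and Myl1, were called lower; of 15 liver-cell genes all 15 lay above 0 (median 1.22) and 0 were called, 1 with an unadjusted p under 0.05. With the adipocyte mean as a covariate 0 of the 31 genes were called between depots in wild type, and 0 with the macrophage mean, but over all genes such fits called only 59 and 3, against 3468 without a covariate. With the macrophage mean in the fit Acadl (-0.62, SE 0.21) and Abcd2 (-0.61, SE 0.26) stayed near -0.62 and -0.65 with larger SEs, while Ech1 was at -0.41 and Etfa at -0.40. The part of these markers in the difference was not tested further.

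**Figure D5:**
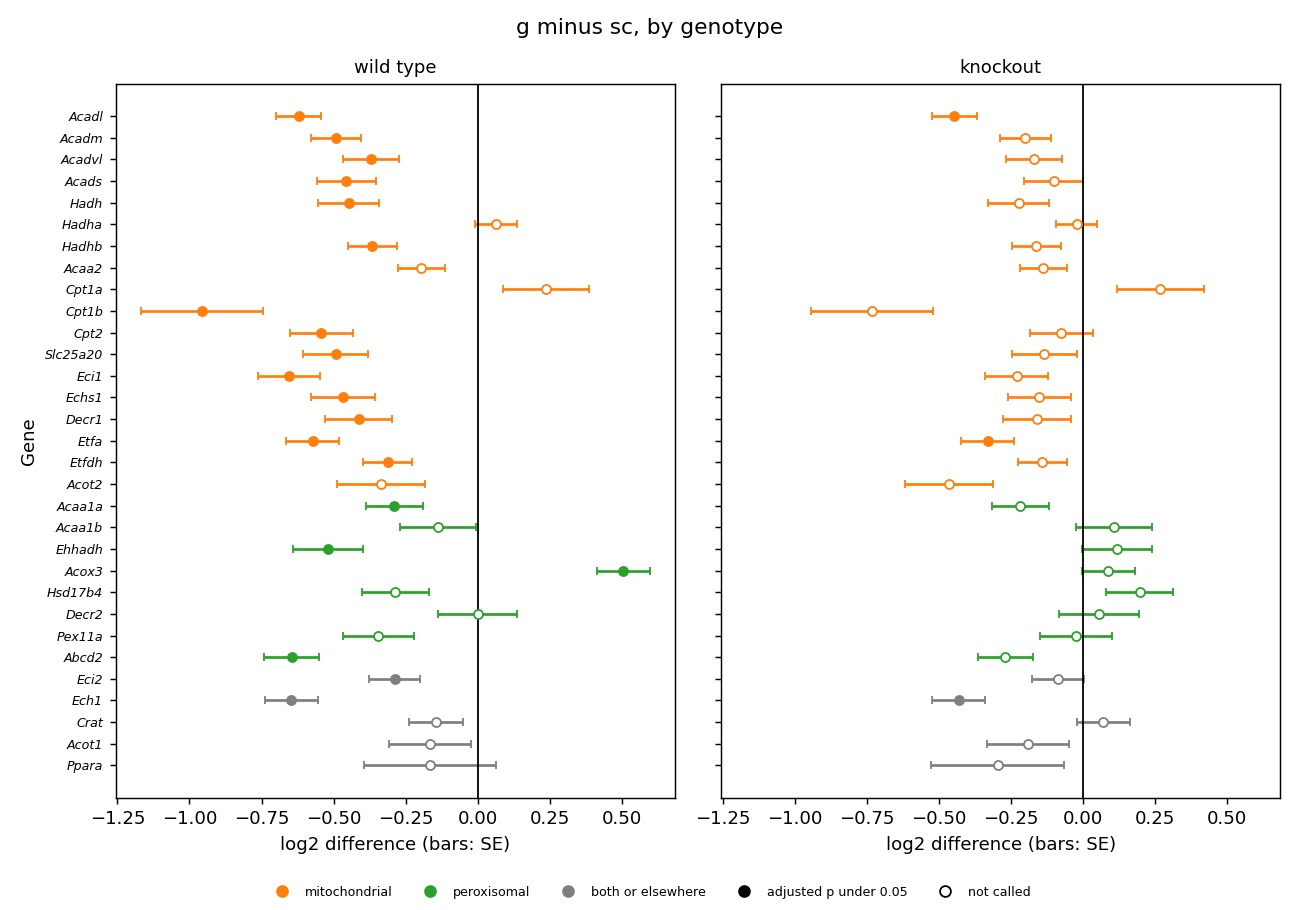
Depot difference, g minus sc, for each of the 31 genes in wild type (left) and knockout (right); the horizontal axis is the log2 difference with its SE, colour gives the place of action, and filled points passed the limma test (adjusted p under 0.05). In wild type 20 points are filled, all left of 0 except Acox3; in knockout Acadl, Etfa and Ech1 are filled.

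Lists of related genes, chosen by function, were read beside the set. In g knockout 5.01% of all genes rose and 6.27% fell. Of 21 measured genes of other mitochondrial fatty acid and propionate handling 9 rose and 0 fell in g knockout, with a median of 0.35. The largest for their error were Acad11, a dehydrogenase of long chains (log2 difference 0.76, limma adjusted p 0.000381), Mmut (0.62, 0.000575) and Pccb (0.64, 0.00154) of the propionyl-CoA pathway, which takes up the remnant of odd-numbered chains, and Hsd17b10, a dehydrogenase of short and branched chains (0.54, 0.000689). Hsd17b10 also rose in sc knockout (0.44, adjusted p 0.0236), as did Acsm3, a medium-chain acyl-CoA synthetase (1.91, adjusted p 0.0371). Of 18 other genes of peroxisomal oxidation 4 rose and 0 fell in g knockout, with a median of 0.29: Nudt7, a coenzyme A hydrolase (0.60, 0.00609), Lonp2, a protease of the peroxisome (0.36, 0.0125), and the alpha-oxidation enzymes Phyh (0.78, 0.0138) and Hacl1 (0.42, 0.0378). The mean of this list was highest on arrays with high liver means, at 7.98 on sc300KO and 7.94 on g317 KO, and lay at 7.19 on g300 KO within the g wild-type range of 7.05 to 7.58.

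Genes that build peroxisomes had no call in g knockout (0 of 12, median 0.18, 11 above 0, 2 with an unadjusted p under 0.05), so of the genes of peroxisome number listed here Pex11a alone was called there. Of 15 regulators and targets of PPAR 3 rose and 0 fell: Rxra, the partner receptor of the PPARs (0.51, limma adjusted p 0.00828), Nrip1, a corepressor (0.56, 0.0165), and Ucp3, a mitochondrial carrier (0.60, 0.0435). Of 17 genes of the respiratory chain and citrate cycle 5 rose and 0 fell, with a median of 0.14, among them Ndufv1 of complex I (0.36, 0.00316) and Idh3a, an isocitrate dehydrogenase subunit (0.28, 0.0237). In the brown fat list 0 of 10 genes rose in either knockout comparison and Ucp1, the uncoupling protein of brown fat, was the one that fell, with log2 differences of -2.56 in sc (adjusted p 0.00817) and -2.33 in g (adjusted p 0.00224).

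Between wild-type depots each of these lists had more genes lower than higher in g, where 8.48% of all genes were lower and 9.3% higher. The respiratory chain and citrate cycle list had 12 of 17 genes lower and 0 higher, led by Idh3a (log2 difference -0.69, limma adjusted p 6.43e-06) and Ndufv1 (-0.56, 2.61e-05). Other mitochondrial oxidation had 7 of 21 lower and 2 higher, the acyl-CoA synthetases Acsl4 (0.38, 0.00558) and Acsl5 (0.42, 0.00659), and other peroxisomal oxidation had 4 of 18 lower. Of the peroxisome builders Pex19, Pex13 and Pex16 were lower (3 of 12), and of the PPAR list Plin5, a lipid droplet protein of oxidative cells (-1.03, 0.000347), Ucp3 (-0.91, 0.00189) and Vnn1 (-0.77, 0.0359). In knockout the counts were 3 of 17 lower for the respiratory chain and citrate cycle, 2 of 15 for the PPAR list, and 0 for each of the other 3 lists. Of all genes 1.27% were lower there.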

How the data were processed

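Array signals of 20 samples were analysed from the deposited table of log2 values per probe; RMA and limma are the tools the authors used, per the submitters' processing notes, with no version stated in the sources used here. Per the labels' protocols 100 ng of total RNA was labelled with biotin. Of 28846 probes 6640 controls were left out; of the other 22206, 19572 have 1 gene symbol, 0 several and 2634 none here. For 55 genes with several probes the one of highest mean was kept, leaving 19505. The number of arrays limits the precision.

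Groups came from the titles. R 4.3.3 and limma 3.58.1 fitted 4 group means (16 residual degrees of freedom, no covariate, two-sided); 5 contrasts were each adjusted by Benjamini-Hochberg over all genes, and called, rose or fell means an adjusted p under 0.05. The SE is limma's moderated one, n is 5 per group, and SD is over samples. The fit was tested on simulated data. The genes and lists were chosen with earlier results of these data known, so lists have counts and medians and no test. Values on every array are given for Cpt1a, Cpt1b, Ppara, Ehhadh and genes called in a knockout comparison; Slc25a20, Hadha and Hadhb were added after their values were seen. For depots, the 6 genes of smallest p per genotype have group means, and other genes named were chosen after their values were seen. Of related lists at most 4 called genes of smallest p are named, with those few others singled out after their values were seen. The series' design text counts 10 arrays under another gene's name, PKP2, while every label gives Olfm2; the labels were used. Alternatives tried were pairing by title number, leaving out each array, dim-gene and probe choices, scaling, the variance model, and cell-marker means as covariates or exclusions.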

Additional observations from a re-analysis of the deposited data

Results flagged for a closer look

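In 8 of 124 groups of 5 arrays, 1 array stood apart from the other 4 by Dixon's criterion (gap over range above 0.71); chance gives about 1 in 20. The array sc286WT, with the highest muscle mean, was low for Hadh (10.65, others 10.98 to 11.04), Cpt1a (8.83, others 9.29 to 9.43), Echs1 (9.42, others 9.75 to 9.85) and Hsd17b4 (9.97, others 10.32 to 10.46). Among g arrays, g308 WT was high for Acadl (10.05, others 9.90 to 9.94), g320 KO high for Etfa (10.61, others 10.21 to 10.31) and g317 KO low for Acox3 (7.79, others 8.20 to 8.36). In sc knockout, sc300KO, which had a high liver mean, was high for Acaa1a (8.63, others 8.30 to 8.39).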

How the results depend on the processing

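Limits: 5 arrays per group, bulk RNA whose marker means differ between the groups, and 1 probe per gene. Without 1 array each, the 31 genes had 0 to 1 calls for knockout in sc, 5 to 11 in g, 17 to 22 between wild-type depots and 2 to 4 between knockout depots. The medians over mitochondrial and peroxisomal genes were then -0.09 to -0.02 and 0.09 to 0.17 (sc), 0.14 to 0.22 and 0.27 to 0.36 (g), 0.18 to 0.27 and 0.22 to 0.36 (difference of these), -0.50 to -0.40 and -0.38 to -0.26 (wild-type depots), and -0.20 to -0.15 and -0.01 to 0.12 (knockout depots).

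Calls in sc numbered 1 instead of 0 without dim genes, with trend and robust, and with the adipocyte or lymphocyte covariate, and 2 with the muscle covariate. The adipocyte covariate called 1.43% of all genes in sc, against 0.677% in the main fit. Calls in g numbered 4 instead of 8 with the liver covariate, where 5.71% of all genes were called against 11.3% in the main fit. They numbered 0 with the macrophage or adipocyte covariate, where 0.00513% and 0.154% of all genes were called. Without arrays of high muscle or high lymphocyte mean they numbered 13, and the muscle exclusion called 14.7% of all genes. Without arrays of high liver mean 1 g knockout array was left, so no count is given (mitochondrial median 0.31). With the adipocyte covariate the mitochondrial and peroxisomal medians were -0.11 and -0.12 in g (Pex11a turned to -0.05), and 0.036 and -0.11 for the difference between depots.

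Between wild-type depots the macrophage covariate left 0 calls instead of 20 (medians -0.24 and -0.086; Eci2 turned to 0.18 and Ehhadh to 0.20, while Acadl at -0.62 and Abcd2 at -0.61 lost their calls with the difference nearly as large). The adipocyte covariate also left 0 (medians -0.058 and 0.26). Under it Acaa1a turned to 0.20, Acads to 0.083, Decr1 to 0.17, Etfdh to 0.040 and Hadh to 0.19. Over all genes the macrophage and adipocyte fits called 0.0154% and 0.302%, against 17.8% without a covariate. Between knockout depots calls numbered 0 instead of 3 with the macrophage covariate (mitochondrial median -0.065), where 0.328% of all genes were called against 4.13%. They numbered 5 with the lymphocyte covariate. Without arrays of high liver mean 1 g knockout array was left, so no count is given there either. The adipocyte covariate gave medians of -0.060 and 0.21, and leaving out arrays of high muscle or high lymphocyte mean a peroxisomal median of -0.094. The cause was not tested in these cases. The lymphocyte settings and the muscle exclusion were chosen after seeing the data.

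Arrays with the same title number did not deviate together: the correlation was above 0.1 for 2 of 10 numbers (-0.46 to 0.14), and 3 of 10 sc arrays matched best with their own number. With the replicate block as a random term calls numbered 0 in sc, 8 in g, 21 between wild-type depots and 4 between knockout depots; as a fixed term, 16 and 1 between depots. Other settings kept the counts within 1.5 times of those reported.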
